A study of Mus musculus with 4 samples.

Results

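The ephrins and Eph receptors studied here were 8 genes, Efna1, Efnb1, Efnb2, Epha2, Epha4, Ephb2, Ephb3 and Ephb4, measured in Py-4-1 mouse hemangioendothelioma cells, an endothelial tumour line. Members were the probe sets that the platform annotation assigns to one of these symbols alone, which gave 14 of 22690 probe sets for 7 of the 8 genes. No probe set was named for Ephb2 alone, and that gene has no value here. The study compared 2 clones carrying pcDNA/Prox1 and described as stably expressing the transcription factor Prox1 with 2 control-transfected clones carrying pcDNA. Each clone was on 1 Affymetrix array, grown in a culture dish without any further treatment named in the labels, and all 4 clones share the Py-4-1 background. The spread within a group therefore joins clonal, culture and array differences, which cannot be told apart.

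Eph receptors are the largest family of receptor tyrosine kinases, and their ligands, the ephrins, are held on the surface of neighbouring cells. A-type ephrins are tethered by a lipid anchor and bind mostly EphA receptors, while B-type ephrins span the membrane and bind mostly EphB receptors. Contact sends signals into both cells and often ends in repulsion or sorting. In developing vessels ephrin-B2 marks arteries and its receptor EphB4 marks veins, and lymphatic vessels also use this pair during remodelling and valve formation.

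The group labels were first set against Prox1 itself, whose single probe set (1421336_at) was not raised. Its intensity was 62.4 and 44.3 in the Prox1-expressing clones of the labels, against 52.1 and 60.5 in control clones, a log2 change of -0.047 ± 0.20 (SE, limma without the intensity filter, adjusted p = 0.963). Its position relative to the transfected construct was not used here. The groups are called Prox1-labelled and control below, and every direction rests on the labels. Each deposited value is a MAS5 signal, a summary of the probes of a probe set on a linear scale, with each array scaled to the same trimmed mean. Array medians were 179.7 and 173 in Prox1-labelled clones and 163 and 177 in control clones. Of 8 endothelial markers, 6 exceeded, on all 4 arrays, the brightest of 27 probe sets for Bacillus transcripts, which serve here as a background level and are called Bacillus controls below. Erg and Cldn5 did not. The brightest Bacillus control read 88.4 and 97.5 in Prox1-labelled clones 1 and 2, against 45.3 and 101 in control clones 1 and 2. This background was thus lowest on control clone 1, where a dim signal exceeds it more easily. The Prox1 probe set exceeded this background on control clone 1 alone and did not pass the intensity filter. It thus gives no level of Prox1 in either group to set against the labels. The summed endothelial signal was 26344 to 26658 in Prox1-labelled clones and 20534 to 25540 in control clones, ranges that did not overlap. Pecam1, the adhesion molecule CD31, had 6242 and 5826 in Prox1-labelled clones, against 5679 and 5418 in control clones. Cdh5, the endothelial cadherin (1433956_at), read 3340.4 and 3332 in Prox1-labelled clones, against 2133 and 4091 in control clones. Fewer markers of other cell types were above this background. The Bacillus controls were exceeded on all 4 arrays by 1 of 5 epithelial markers (Cldn4), 1 of 4 measured leukocyte markers (Cd68), 3 of 5 mural and fibroblast markers (Acta2, Des and Rgs5) and 0 of 5 neuronal markers. Epcam, Cdh1, Ptprc, Itgam, Cd3e, Pdgfrb, Snap25, Rbfox3 and Map2 lay at or under those controls on every array. The summed leukocyte signal, mostly that of Cd68, was 784 to 895 in Prox1-labelled clones and 924 to 1062 in control clones, and the mural and fibroblast sum was 586 to 661 in Prox1-labelled clones and 686 to 872 in control clones. The epithelial sums (314 to 352 in Prox1-labelled clones and 301 to 423 in control clones) and the neuronal sums (179 to 231 in Prox1-labelled clones and 125 to 193 in control clones) overlapped. The part of these markers in the results below was not tested.

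Of the 14 ephrin and Eph receptor probe sets, 0 passed the test between the groups. Fold changes were computed on log2(intensity + 47), with 47 the 25th percentile of all values, and tested with limma at a Benjamini-Hochberg adjusted p under 0.05. The test covered the 11656 probe sets that exceeded the array median on at least 2 arrays. Of these probe sets 0.103% were called, a share at which a count of 0 among 8 tested member probe sets does not set them apart. The 8 tested probe sets belong to 5 genes, Efna1, Efnb1, Efnb2, Epha2 and Ephb4, and had adjusted p from 0.317 to 0.830. The other 6 were read from the same fit without the filter, which called 0 of 22626 probe sets (0.0%), and had adjusted p from 0.387 to 0.992. An unadjusted p under 0.05 was reached by 1 of the 8 (Ephb4), where 14.5% of all tested probe sets reached it, and by 1 of the 6 (Epha4), where the share without the filter was 10.2%.

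Separation of the groups was likewise close to that of the arrays as a whole. Both Prox1-labelled clones lay outside the range of both control clones in 7 of the 14 probe sets, 3 higher and 4 lower. Over all probe sets without the filter the share was 41.1%. Among the 8 tested probe sets it was 4, beside 46.2% of all tested. Clones of the same group also differed at these genes. The median absolute log2 difference over the 14 probe sets was 0.15 between the Prox1-labelled clones and 0.39 between the control clones, beside 0.18 and 0.24 over all probe sets.

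**Figure D1:**
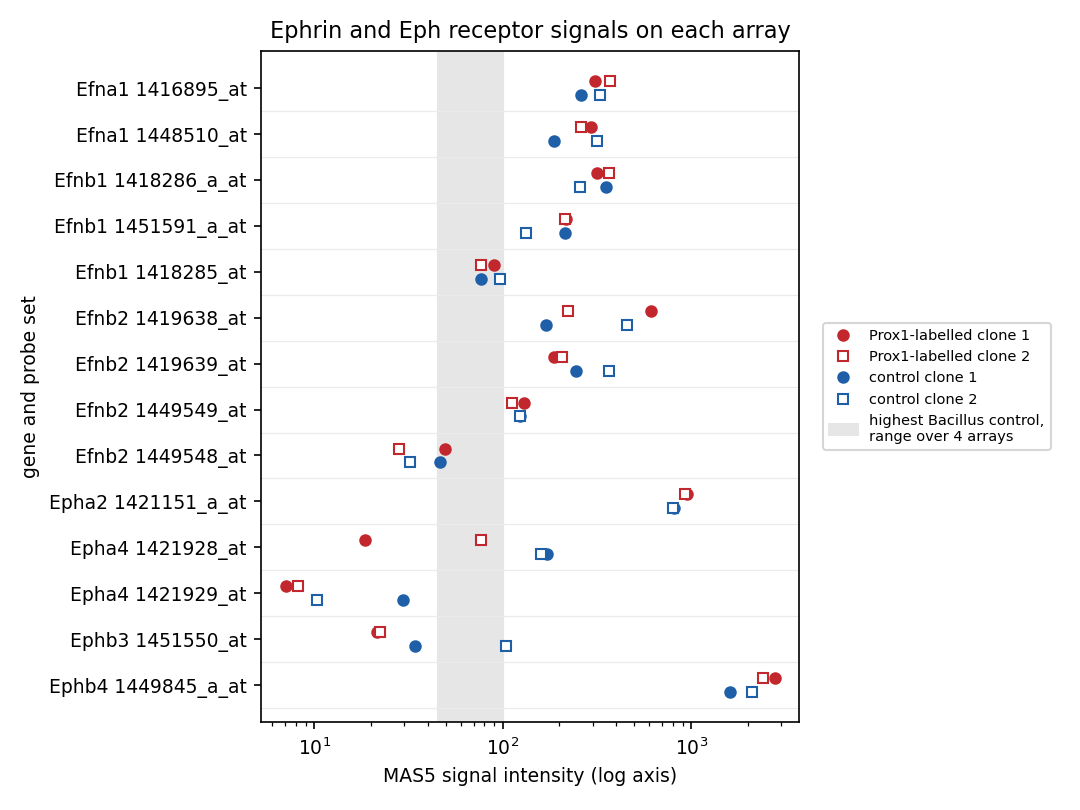
MAS5 signal intensity (log axis) of the 14 ephrin and Eph receptor probe sets on each array, with Prox1-labelled clones in red above control clones in blue. The grey band is the range of the highest Bacillus control over 4 arrays (45.3 to 101). Ephb4 and Epha2 lie to the right of the band with both red points beyond both blue ones, whereas the Prox1-labelled points of 1421928_at of Epha4 lie within or left of it.

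Among the ligands, Efna1 encodes ephrin-A1, a cytokine-inducible ligand of EphA2 in endothelium. Its probe set 1416895_at read 309.9 and 372 in Prox1-labelled clones 1 and 2, against 262 and 327 in control clones 1 and 2. The groups overlapped, with control clone 2 above Prox1-labelled clone 1. On the log2 scale the change was 0.19 ± 0.21 (95% interval -0.30 to 0.67, limma adjusted p = 0.75). The other probe set of Efna1 (1448510_at) read 293 and 261 in Prox1-labelled clones, against 187 and 315 in control clones. Here control clone 1 was the low array and control clone 2 the high one, so the control range enclosed both Prox1-labelled values. Its log2 change was 0.15 ± 0.25 (limma adjusted p = 0.830), and it was -0.16 on leaving out control clone 1 and 0.47 on leaving out control clone 2. The 95% interval ran from -0.42 to 0.725.

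Efnb1 encodes ephrin-B1, a transmembrane ligand of EphB receptors, and was covered by 3 probe sets. The probe set 1418286_a_at read 316 and 369 in Prox1-labelled clones, against 352 and 256 in control clones. The groups overlapped, and the log2 change was 0.16 ± 0.22 (limma adjusted p = 0.800). In 1451591_a_at the values were 216 and 213 in Prox1-labelled clones, against 213 and 134 in control clones. The groups did not overlap there, but Prox1-labelled clone 2 and control clone 1 were nearly equal, and control clone 2 alone stood apart. Its log2 change was 0.27 ± 0.24 (limma adjusted p = 0.668), which became 0.0070 on leaving out control clone 2 and 0.53 on leaving out control clone 1. The remaining probe set, 1418285_at, lay below the filter, with 89.5 and 76.4 in Prox1-labelled clones, against 76.4 and 96.2 in control clones. It exceeded the Bacillus controls on 2 arrays.

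Efnb2 encodes ephrin-B2, the arterial ligand, and its 4 probe sets did not give one direction. The probe set 1419638_at read 613 and 222 in Prox1-labelled clones 1 and 2, against 170 and 455 in control clones 1 and 2. It varied 2.76-fold within the Prox1-labelled clones and 2.67-fold within the control clones, more than between the group means (1.34-fold). The highest array was thus Prox1-labelled clone 1 and the lowest control clone 1, with the remaining arrays crossed between them. Its log2 change was 0.35 ± 0.46 (95% interval -0.69 to 1.40, limma adjusted p = 0.785). Leaving out Prox1-labelled clone 1 gave -0.29 and leaving out control clone 1 gave -0.25, whereas it was 0.96 without control clone 2 and 0.999 without Prox1-labelled clone 2.

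The second Efnb2 probe set past the filter, 1419639_at, gave the opposite sign. It read 187 and 207 in Prox1-labelled clones, against 246 and 366 in control clones, so both Prox1-labelled clones lay under both control clones. Means were 197 ± 13.8 in Prox1-labelled clones and 306 ± 84.4 in control clones (SD, n = 2 each). The log2 change was -0.51 ± 0.24 (95% interval -1.04 to 0.020, limma adjusted p = 0.360). Leaving out control clone 1 gave -0.76 and leaving out control clone 2 gave -0.27. Below the filter, 1449549_at read 130.3 and 111 in Prox1-labelled clones, against 124 and 123 in control clones, a log2 change of -0.026. The fourth probe set, 1449548_at, read 49.5 and 28.1 in Prox1-labelled clones, against 46.2 and 32.1 in control clones, a log2 change of -0.012. These last 2 probe sets overlapped between the groups, and 1449548_at exceeded the Bacillus controls on 1 array alone, control clone 1, where that background was lowest. All 4 probe sets carry the same source accession in the annotation. Which part of the transcript each one reads was not used here, and a direction for Efnb2 is not settled by these arrays.

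Among the receptors, Ephb4 encodes the venous receptor of ephrin-B2, and it had the smallest unadjusted p of the tested members. Its single probe set (1449845_a_at) read 2782 and 2406 in Prox1-labelled clones, against 1604 and 2103 in control clones. Both Prox1-labelled clones exceeded both control clones, and the gap between the nearest arrays was smaller than the gap between the control clones. Means were 2594 ± 266 in Prox1-labelled clones and 1853 ± 353 in control clones (SD, n = 2 each), a ratio of 1.40. In the fit the log2 change was 0.48 ± 0.20 (95% interval 0.029 to 0.94, unadjusted p = 0.0396 in the limma fit, limma adjusted p = 0.317), so Ephb4 did not pass after adjustment. Adjusted p ran from 0.0438 to 1.0 over the alternatives. The log2 change was 0.29 without control clone 1 and 0.67 without control clone 2 (limma adjusted p = 0.0438). That last fit called 1150 probe sets in all, with the spread taken from the Prox1-labelled clones alone. Without a Prox1-labelled clone the log2 change of Ephb4 was 0.38 (without clone 1) or 0.59 (without clone 2). The summed endothelial marker signal given above was also higher in both Prox1-labelled clones than in both control clones, with 26344 against 25540 at the nearest arrays. Of the 6 markers above the Bacillus controls on all 4 arrays, Pecam1, Tek and Eng were higher in both Prox1-labelled clones. Cdh5, Kdr and Esam overlapped between the groups. The part of this sum in the Ephb4 difference was not tested. In bulk samples a different share of cells and a different RNA content per cell cannot be told apart.

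Epha2 encodes the main ephrin-A1 receptor of endothelium and a mediator of endothelial cell migration. It read 954 and 930.3 in Prox1-labelled clones, against 812 and 801 in control clones (1421151_a_at). The clones of each group lay close together, and the groups did not overlap. Means were 942 ± 17.0 in Prox1-labelled clones and 806 ± 7.46 in control clones (SD, n = 2 each), a ratio of 1.17. A log2 change of 0.21 ± 0.18 was fitted (95% interval -0.20 to 0.63, limma adjusted p = 0.649), where the error includes the spread that limma borrows from probe sets of like intensity. It stayed between 0.195 and 0.231 whichever clone was left out.

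Epha4, a receptor that binds ephrins of both classes, was lower in both Prox1-labelled clones at both of its probe sets, and neither passed the filter. The first, 1421928_at, read 18.5 and 76.7 in Prox1-labelled clones, against 171 and 160.1 in control clones. Both Prox1-labelled values lay under the highest Bacillus control of their arrays and both control values above it. The control clones nearly coincided. The median Bacillus control was 15.2 and 18.3 on the arrays of Prox1-labelled clones 1 and 2, so 76.7 stood above it and 18.5 near it. As both values lay under the brightest Bacillus control, their order was not read. Set against the highest Bacillus control in place of the dim signals, the control clones were at least 1.78-fold higher than the Prox1-labelled clones, a bound without a test. The log2 change was -1.24 ± 0.34 (95% interval -2.08 to -0.40, unadjusted p = 0.0113 in the limma fit without the filter, limma adjusted p = 0.387). It depends on the pseudocount, with -2.13 without one and -0.63 with 173, the median of all values. Leaving out Prox1-labelled clone 1 gave -0.78 and leaving out Prox1-labelled clone 2 gave -1.70. The other probe set, 1421929_at, read 7.05 and 8.19 in Prox1-labelled clones, against 29.6 and 10.4 in control clones, all of them under the Bacillus controls, so that it gives no level.

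Ephb3, an EphB receptor best known from intestinal crypts and axon guidance, was also dim. Its probe set (1451550_at) read 21.6 and 22.4 in Prox1-labelled clones, against 34.4 and 104 in control clones. Only control clone 2 exceeded its Bacillus controls, so the difference rested on that array. Ephb3 had a log2 change of -0.68 ± 0.31 (limma without the filter, adjusted p = 0.529), and it was -0.24 in the absence of control clone 2 and -1.13 in the absence of control clone 1.

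**Figure D2:**
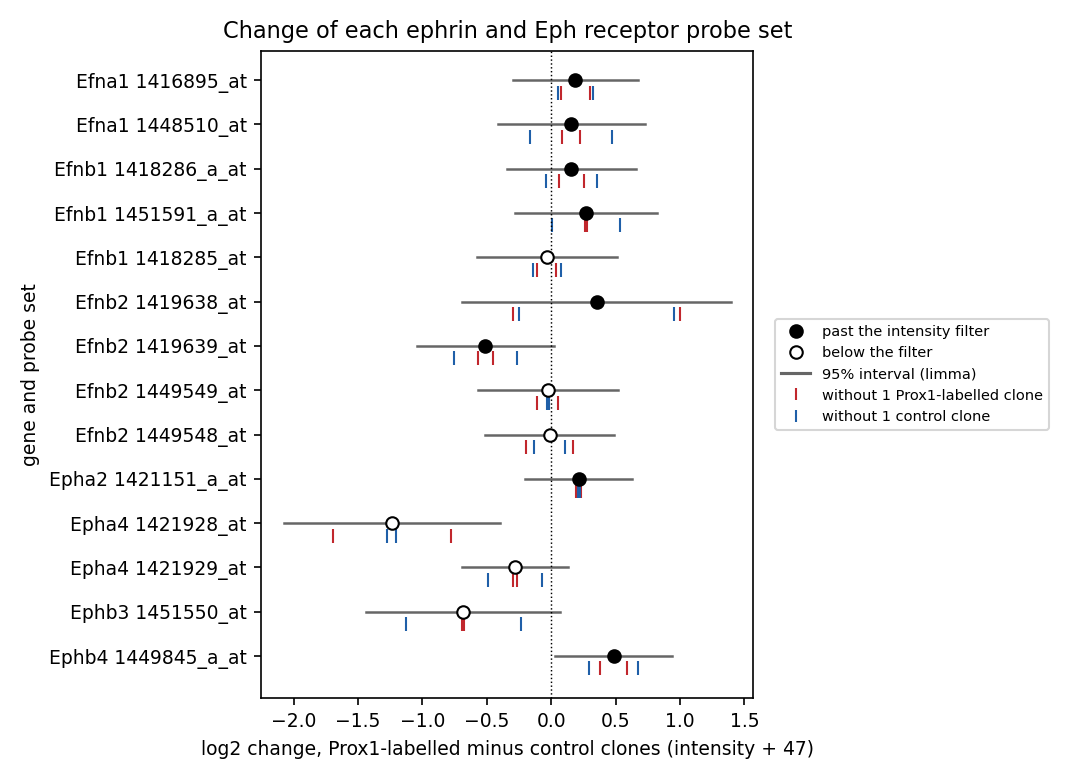
Log2 change (Prox1-labelled minus control clones, intensity + 47) of the 14 ephrin and Eph receptor probe sets. Points are limma estimates, filled where the probe set passed the intensity filter, lines are 95% intervals, and ticks under each point are the values on leaving out 1 clone. The interval of Ephb4 (0.029 to 0.94) and that of 1421928_at of Epha4 (-2.08 to -0.40) lie on one side of 0 before adjustment, and the ticks of 1419638_at of Efnb2 spread from -0.29 to 0.999.

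The arterial and venous genes of the pair, Efnb2 and Ephb4, were compared by their changes within each array, since levels of different probe sets cannot be set against each other. Values are log2 Efnb2 minus log2 Ephb4, relative to the mean of the 4 arrays. With 1419638_at, the probe set of Efnb2 with the highest mean, they were 0.48 and -0.61 in Prox1-labelled clones 1 and 2, against -0.35 and 0.48 in control clones 1 and 2. The groups overlapped, and the change of Efnb2 was 0.13 lower than that of Ephb4 on the log2 scale (difference of changes -0.13), less than the spread within either group (SD 0.77 in Prox1-labelled clones and 0.58 in control clones). With 1419639_at they were -0.66 and -0.34 in Prox1-labelled clones, against 0.44 and 0.55 in control clones. Both Prox1-labelled clones then lay below both control clones, with a difference of changes of -0.995 against SDs of 0.23 in Prox1-labelled clones and 0.079 in control clones.

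The dim probe sets 1449549_at and 1449548_at gave differences of changes of -0.51 and -0.50. Without overlap the Prox1-labelled clones were lower in both, where the change of Ephb4 made up nearly all of the difference. They add no separate evidence on Efnb2, and 1449548_at was above the Bacillus controls on 1 array alone. All 4 comparisons use the same Ephb4 values and are not independent. Averaged over both Efnb2 probe sets past the filter, the difference of changes was -0.56. With 2 clones a group, an exact permutation test cannot give a p under 0.333, and no test was made of this difference.

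**Figure D3:**
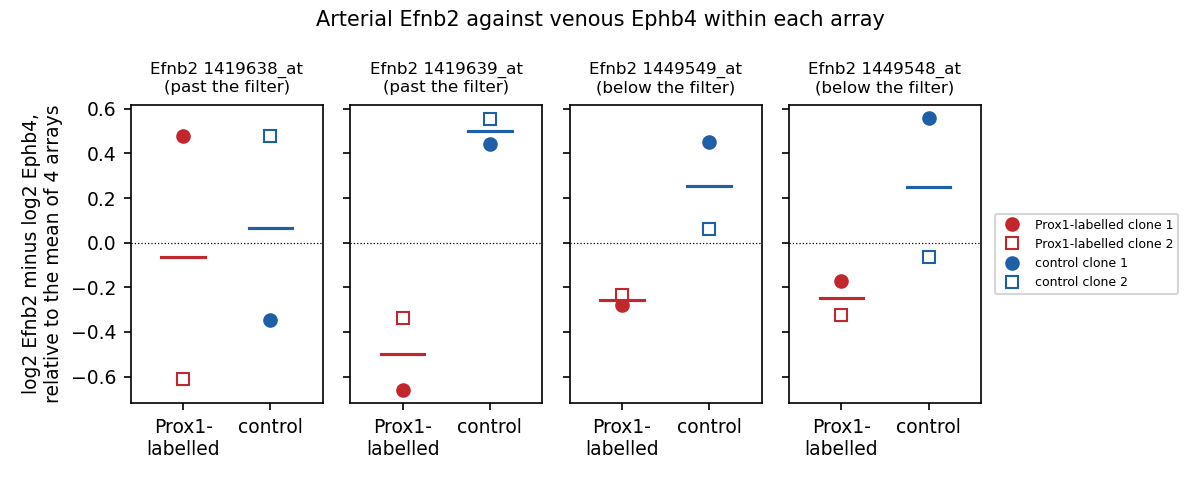
Log2 Efnb2 minus log2 Ephb4 within each array, relative to the mean of the 4 arrays, 1 panel for each Efnb2 probe set, with Prox1-labelled clones in red left of control clones in blue. Short lines are group means of 2 clones. The groups overlap with 1419638_at and lie apart with 1419639_at (-0.66 and -0.34 against 0.44 and 0.55).

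Other genes listed as arterial or venous were read as a frame for this pair. These lists, and that of signalling partners below, were chosen with earlier results of these data known. Their counts, medians and calls are therefore descriptions and give no independent support. Of 16 other arterial genes listed, 10 passed the filter, 7 with a log2 change above 0 (Jag1 among them at 0.000) and 3 below. Their median was 0.37, beside 0.0070 over all 6956 genes tested, of which 50.9% were above 0, and 0 passed the test, beside 0.115% of all genes. By gene the groups did not overlap in 7 of the 10, beside 46.4% of all genes. Sox17, a transcription factor of arterial endothelium, read 193 and 200.2 in Prox1-labelled clones, against 105 and 81.7 in control clones (log2 change 0.80 ± 0.23, limma adjusted p = 0.188). Cxcl12, a chemokine of arterial endothelium and stroma, read 1194 and 545 in Prox1-labelled clones, against 346 and 431 in control clones (log2 change 0.98 ± 0.32, limma adjusted p = 0.229). It was 0.45 without Prox1-labelled clone 1 and 1.52 without Prox1-labelled clone 2 (limma adjusted p = 0.0175). The arterial median was 0.035 without control clone 1 and 0.098 over all 16 genes without the filter. The Notch ligand Dll4, which like Efnb2 marks arterial endothelium, was chosen after its values were seen. It read 96.8 and 112 in Prox1-labelled clones, against 163 and 256 in control clones (log2 change -0.74, limma adjusted p = 0.246). Dll4 passed the filter through the control clones alone, and Sox17 through the Prox1-labelled clones alone. In each case this was the group with the higher values. The separation of these genes is thus partly selected by the filter, and the counts and median of the arterial list include both.

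Of 9 other venous genes listed, 8 passed the filter, 6 with a log2 change above 0 and 2 below, with a median of 0.36. The list includes Tie1 and Flt4, which are not confined to veins. The groups did not overlap in 6 of the 8, beside 46.4% of all genes. The 1 gene called, beside 0.115% of all genes, was Selp, which encodes P-selectin, an adhesion receptor stored in endothelium and platelets. It rose by 2.01 ± 0.22 on the log2 scale (limma adjusted p = 0.0229), from a probe set that read 3918 and 3841 in Prox1-labelled clones, against 754 and 1138 in control clones. Without the filter that call was lost (limma adjusted p = 0.367). Since the list was chosen with earlier results known, the call of Selp is no independent finding about venous genes. The venous median was 0.19 without control clone 1. Nr2f2, the transcription factor of venous identity, was also chosen after its values were seen. It read 763 and 825 in Prox1-labelled clones, against 558 and 479 in control clones (log2 change 0.57, limma adjusted p = 0.238). Without the filter the venous median was 0.38 over all 9 genes, where the arterial median was 0.098, so that the near-equal medians of the lists (0.37 arterial and 0.36 venous) hold for the genes past the filter.

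**Figure D4:**
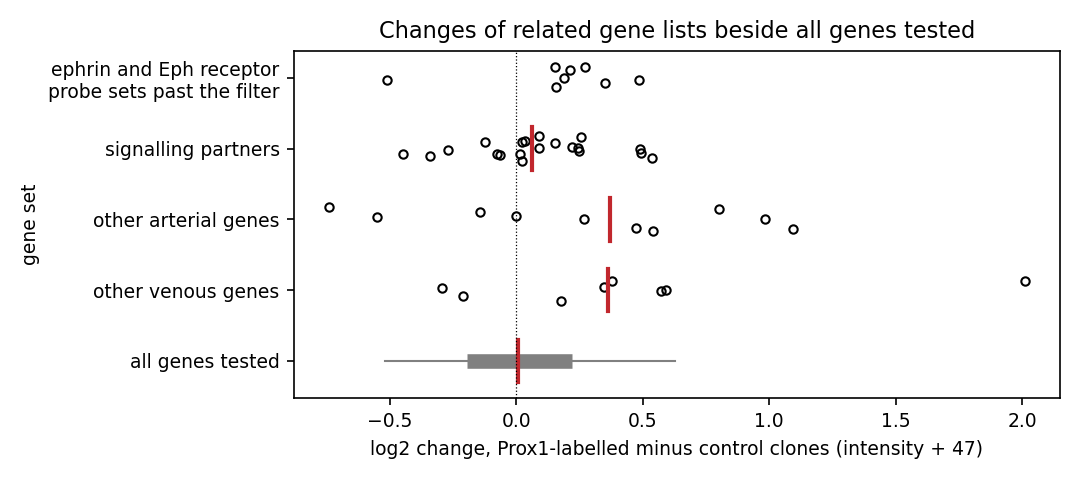
Log2 changes (Prox1-labelled minus control clones, intensity + 47) of the tested ephrin and Eph receptor probe sets and of genes in 3 related lists, 1 circle each, with the list median as a red line for the lists. The grey bar holds the middle of all 6956 genes tested (25th to 75th percentile, -0.19 to 0.22) and its line runs from the 5th to the 95th percentile (-0.52 to 0.63). The arterial and venous medians (0.37 and 0.36) lie right of the bar, and that of the signalling partners (0.061) within it.

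The remaining family members were dim on these arrays. Of 14 other ephrin and Eph genes, 12 had probe sets of their own, 19 in all, and 0 of these passed the intensity filter. On all 4 arrays, 3 probe sets exceeded the Bacillus controls, those of the ephrin-A ligands Efna2, Efna3 and Efna4, while 10 exceeded them on 0 arrays. In the RefSeq gene table Efna1, Efna3 and Efna4 are consecutive protein-coding genes. Efna3 read 132 and 115 in Prox1-labelled clones, against 154 and 179 in control clones (log2 change -0.32, limma without the filter, adjusted p = 0.681). Efna4 read 133 and 164 in Prox1-labelled clones, against 139 and 213 in control clones (log2 change -0.18, adjusted p = 0.870 in the same limma fit). Efna1, by contrast in sign alone, had the positive changes given above, and none of these 3 neighbours passed the test.

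Among the 19 probe sets, 2 had an unadjusted p under 0.05 in the limma fit without the filter, beside 10.2% of all. Epha7, a receptor known mainly from the nervous system, read 88.8 and 47.8 in Prox1-labelled clones, against 18.2 and 8.82 in control clones at 1427528_a_at (log2 change 0.91, limma adjusted p = 0.376). Of these 4 values 1 exceeded the Bacillus controls, that of Prox1-labelled clone 1, by less than 1 unit. The other probe sets of Epha7, 1451991_at and 1452380_at, had changes of -0.17 and -0.14. Epha1, an epithelial Eph receptor, read 44.0 and 38.3 in Prox1-labelled clones, against 84.3 and 86.4 in control clones at 1432400_at (log2 change -0.59, limma adjusted p = 0.431). Only control clone 1 exceeded its Bacillus controls at this probe set, where that background was 45.3, against 101 on control clone 2. The other probe sets of Epha1, 1432399_a_at and 1422917_at, had changes of -0.022 and -0.12. Both genes were named after their values were seen.

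Signalling partners of the receptors and of the ephrins showed no call. Of 32 signalling partners listed, 20 passed the filter, 14 with a log2 change above 0 and 6 below, and 0 passed the test, beside 0.115% of all genes. Their median was 0.061, and the groups did not overlap in 8 of the 20, beside 46.4% of all genes. Sdcbp encodes syntenin, a PDZ protein that binds the tail of B-type ephrins. It read 9824 and 9669 in Prox1-labelled clones, against 7039 and 6763 in control clones. The groups were far apart relative to their spread, at 9747 ± 110 in Prox1-labelled clones and 6901 ± 195 in control clones (SD, n = 2 each). The log2 change was 0.49 ± 0.16 (limma adjusted p = 0.220), so Sdcbp did not pass. On leaving out a clone the change ran from 0.47 to 0.52, in fits where 1 group has no spread of its own. Yes1, a Src-family kinase, read 578 and 649 in Prox1-labelled clones, against 375 and 443 in control clones (log2 change 0.54 ± 0.20, limma adjusted p = 0.271). The median of the list was -0.013 without control clone 1 and 0.26 without control clone 2.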

How the data were processed

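Total RNA of 4 Py-4-1 clones was turned into biotinylated cRNA, about 10 µg each, per the labels' protocols. The deposited values are linear probe set intensities, and the submitters' processing notes name MAS5 (version not given in the sources used here). The mean after trimming 2% at either end was 500 on every array. Detection calls were not used here, and arrays limit precision by their number.

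Groups came from sample titles. Probe sets were named where the platform annotation gives 1 gene (20393 probe sets, 691 with several genes, 1606 with none). Symbols were checked against RefSeq of GRCm38.p6, with 0 updated. The 64 Affymetrix controls were not tested.

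Values were analysed as log2(intensity + 47) with limma 3.58.1 in R 4.3.3 (lmFit, eBayes with an intensity trend, 2-sided), filtered at the array median on at least 2 arrays, with Benjamini-Hochberg adjustment over 11656 probe sets and a threshold of 0.05. Members below the filter were read from the fit without it. In lists each gene was read from its brightest probe set by mean log2 value. Intervals are 95% intervals of the fit. On simulated data for this comparison over 11656 probe sets, 200 of them changed, 41% of the 2-fold and 99% of the 4-fold changes were called, and 13 of the 153 calls were false. Simulated errors were normal, drawn from the fitted variance model and equal in spread in both groups, and falls at dim probe sets were turned into rises. In the data the median absolute log2 difference over tested probe sets was 0.26 between control clones and 0.16 between Prox1-labelled clones. The simulated shares may therefore not hold for these arrays.

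Named genes were all members, Prox1, Pecam1, Cdh5 and, per list, up to 4 members past the threshold or else the 2 with the smallest unadjusted p. The 3 genes most like the member with the smallest unadjusted p were taken by root mean square difference of centred log2 values. Members and lists were chosen with earlier results of these data known. Alternatives were quantile normalization, median centring, other pseudocounts, filters and variance models, the clone number as a block, each clone left out, and the mean over probe sets of a gene.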

Additional observations from a re-analysis of the deposited data

How the results depend on the processing

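Of 14 ephrin and Eph receptor probe sets, 0 were called in any alternative except without control clone 2, where 1 was called (Ephb4), a range of 0 to 1 on leaving out a clone. Over all probe sets the 12 calls became 4 under quantile normalization, 4 under median centring, 7 with the robust variance model and 0 without the filter (2300 at an unadjusted p under 0.05 in limma), and 42 to 1150 on leaving out a clone. The clone number as a replicate block gave 110 calls. Clones of the same number shared only a number (correlation of their deviations -0.0091), and the block changed no member call. The Efnb2 change minus the Ephb4 change ran from -0.68 to 0.41 on leaving out a clone. With the filter at the 75th percentile it gave no value, since Efnb2 was not measured there.

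List medians on leaving out a clone ran from -0.013 to 0.26 for signalling partners, from 0.035 to 0.58 for other arterial genes and from 0.19 to 0.48 for other venous genes. The arterial median was 0.098 without the filter, and the venous one 0.57 with the filter at the 75th percentile, with 5 genes measured. Of 276 values of 23 named probe sets under the alternatives, 258 kept their sign and side of the threshold and 13 changed sign, all on leaving out a clone. These were 1448510_at of Efna1 (-0.16 to 0.47), 1418286_a_at (-0.041 to 0.36) and 1418285_at (-0.14 to 0.072) of Efnb1, 1419638_at (-0.29 to 0.999), 1449549_at (-0.11 to 0.055) and 1449548_at (-0.19 to 0.17) of Efnb2, Prox1 (-0.18 to 0.083) and Cdh5 (-0.32 to 0.62 at 1422047_at and -0.29 to 0.63 at 1433956_at). The cause was not tested. Fits without a clone hold no spread of its group. Signals near the Bacillus controls limit what can be said of Prox1, Epha4, Ephb3 and 2 of the Efnb2 and Efnb1 probe sets.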

Other observations

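Genes with profiles most like those of the members over the 4 arrays were found by the root mean square difference of log2 values, each centred on its mean. For Epha4 (1421928_at), the member with the smallest unadjusted p, the nearest of 20380 probe sets with 1 gene were Speer4f1 (difference 0.090), Slc35c2 (0.10) and Emc7 (0.12). Slc35c2 read 30.1 and 114 in Prox1-labelled clones, against 194 and 223 in control clones. Its log2 change was -1.20 (limma adjusted p = 0.188 in the fit with the filter). Slc35c2 passed that filter through the control clones alone, where it was higher, and Prox1-labelled clone 1 lay under its Bacillus controls. The value for Epha4 (limma adjusted p = 0.387) is from the fit without the filter, so the 2 are not on the same base. For Ephb4, which was added after its values were seen, the nearest of 10727 probe sets were the transcription factor gene Klf3 (difference 0.0080), the G protein subunit gene Gng11 (0.024) and Fam111a (0.027). Gng11 read 12115 and 10131 in Prox1-labelled clones, against 6759.8 and 9058 in control clones (log2 change 0.50, limma adjusted p = 0.289). With 4 arrays many genes share a profile by the number searched, so that these are descriptions.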
